A study of Yarrowia lipolytica with 12 samples.

Results

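The genes examined here were those at the 12 chromosome ends of the dimorphic yeast Yarrowia lipolytica. Gene identifiers in this yeast carry a chromosome letter, A to F, followed by a number that increases along the chromosome, so position was read from the order of the identifiers and not from coordinates. Within each of the 6 letters the 15 lowest and the 15 highest identifiers found in any of the 4 deposited tables were taken, which gave 180 genes. The selection named 6 identifiers to be left out. YALI0A00110, YALI0A00176, YALI0A21373, YALI0C00209 and YALI0D00154 were among the 180 and were removed, while YALI0F31889 was not among the identifiers used here. The remaining 175 end genes were 2.73% of the 6400 genes in the tables and are compared below with the 6220 genes of the rest of the genome. All 175 had a count in at least 1 library.

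RNA-Seq libraries were made from cells grown in liquid medium with N-acetylglucosamine (GlcNAc, an amino sugar) as the sugar, in 4 groups of 3 libraries. The first group is labelled rep1, for deletion of the transcription factor gene YlREP1. The second is labelled ngs1, for deletion of YlNGS1, which encodes an N-acetyltransferase related to the histone acetyltransferase Gcn5. The level of the targeted gene goes against some of these labels, as given below, so the groups are called by their labels. Both carried the plasmid pYL27-4NAG, on which the GlcNAc catabolic genes YlNGT1, YlNAG5, YlDAC1 and YlNAG1 are each driven by the constitutive YlACT1 promoter. The third group is wild type (strain PO1a) with the same plasmid, written WT-4NAG, and serves as the control of both mutant-labelled groups. The fourth is wild type with the vector pYL27, written WT-Vec. The study describes slower growth and short filaments for the deletion strains in this medium, and each deletion was represented by 1 strain. All cultures were grown to a similar optical density, and the libraries are numbered replicates with nothing in the labels on whether the cultures were separate. The p-values therefore refer to the spread among these particular libraries. Libraries of the same group differed by more than random sampling of reads alone would give. The ratio of observed to sampling variance was 173 to 313 for pairs of libraries labelled rep1 and 60.4 to 417 for those labelled ngs1. In the wild-type groups it was 7.27 to 14.2. Whether this spread came from separate cultures or from handling was not tested.

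Genes near chromosome ends are of interest in yeasts because the regions next to telomeres are often rich in genes for transport, cell surface and nutrient use that vary between strains. In Saccharomyces cerevisiae, silencing proteins that spread inward from the telomere can lower the expression of nearby genes. The comparison asks whether the level of the end genes, or their change between groups, differed from that of the rest of the genome. Because whole cultures were sequenced, fewer cells expressing a gene and less RNA per cell cannot be told apart.

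The libraries held 15667204 to 22650213 counts each. The deleted genes were still counted in several libraries. YlREP1 stood at 26.4%, 14.0% and 82.5% of its WT-4NAG mean in replicates 1, 2 and 3 labelled rep1, and YlNGS1 at 0.0733%, 22.9% and 46.7% in replicates 1, 2 and 3 labelled ngs1. Replicate 3 of each of these groups was therefore the library that went furthest against its label, and calls, level classes and directions of change are also given without it. Across the genes tested in all 3 comparisons that involve WT-4NAG, deviations from the group mean were shared between differently numbered libraries. Replicate 1 labelled ngs1 correlated with replicate 2 labelled rep1 (r = 0.84), and replicates 2 and 3 labelled ngs1 with replicate 1 labelled rep1 (r = 0.59 and 0.49), while replicate 3 labelled ngs1 ran against replicate 2 labelled rep1 (r = -0.78). These values are across genes of the same libraries. Each deviation is taken from the mean of its own 3 libraries, so the correlations are tied together and are not separate observations. Their part in the results was not tested. The libraries of the mutant-labelled groups also differed more among themselves than those of the wild type. For the end genes the median SD of log2 CPM (read counts scaled to a common library size) was 0.28 and 0.26 in the libraries labelled rep1 and ngs1, against 0.09 in WT-4NAG and 0.10 in WT-Vec, and the rest of the genome had 0.28, 0.27, 0.09 and 0.09 in the same order of groups.

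The end genes as a whole were expressed at close to the level of other genes. In FPKM, which divides read counts by gene length and library size and so allows levels of different genes to be compared, the median end gene stood at 35.2 ± 3.24 in the libraries labelled rep1, 34.0 ± 1.34 in those labelled ngs1, 31 ± 0.161 in WT-4NAG and 33.0 ± 0.745 in WT-Vec (SD, n = 3 each). The median of the rest of the genome was 36.2 ± 3.27, 34.6 ± 3.75, 34.2 ± 0.0305 and 35.1 ± 0.464 FPKM in the same groups. In the wild type the end genes lay below the rest in each of the 6 libraries. In the libraries labelled ngs1 this held in 2 of 3, because replicate 3 had 34.0 FPKM for the ends and 31.2 FPKM for the rest. Among all genes of a library, the median end gene ranked at percentile 47.6 to 51.7.

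The spread of levels was wider at the ends than the medians show. End genes under 1 FPKM made up 11.4% of the members in each mutant-labelled group, 13.1% in WT-4NAG and 12.0% in WT-Vec, against 8.14%, 7.72%, 8.55% and 8.73% of the rest of the genome. At the upper extreme, 8 members (4.57%) were above 1000 FPKM in each of the 4 groups, against 3.46%, 3.41%, 3.36% and 3.28% of the rest. Members with no count in any library of a group numbered 3 in the libraries labelled rep1, 3 in those labelled ngs1, 1 in WT-4NAG and 1 in WT-Vec. The ends thus held a somewhat larger share of very low genes, and no test was applied to these shares. The larger share of very high genes rests on 8 members. In WT-4NAG the lower quartile was 5.2 to 6.12 FPKM at the ends and 9.23 to 9.53 in the rest. The upper quartile there was 105 to 109 FPKM at the ends and 105 to 107 in the rest. In the libraries labelled rep1 the lower quartile was 4.99 to 7.32 against 9.28 to 13.1 FPKM, and the upper quartile 100 to 126 against 101 to 107 FPKM. Without replicate 3 of each mutant-labelled group, 11.4% and 12.0% of the members were under 1 FPKM in the libraries labelled rep1 and ngs1, against 8.04% and 7.86% of the rest, and 4.57% were above 1000 FPKM in both.

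The 12 ends, of 13 to 15 genes each, had very different medians, and blocks of that size elsewhere in the genome were not examined. In WT-4NAG the median level was 133 FPKM at the low-numbered end of chromosome A, 90.4 at the high-numbered end of B and 82.0 at the low-numbered end of E, but only 12.6 at the low-numbered end of B and 15.6 at the low-numbered end of C. Genes under 1 FPKM were unevenly placed: the high-numbered end of E had 6 of its 15 members in this class, the low-numbered end of B 5 of 15, the low-numbered end of D 4 of 14 and the low-numbered end of F 3 of 15. The high-numbered ends of B, C and D and the low-numbered end of E had 0. In the mean over 3 libraries the low-numbered ends of A and E and the high-numbered end of B stayed above the other 9 in each of the 4 groups. The median of the low-numbered end of A ran between 29.6 and 102 FPKM among the libraries labelled ngs1, against 123 to 139 FPKM in WT-4NAG. The 29.6 rests on a single member, YALI0A00154, and without that gene the median was 54.9 to 60.2 FPKM in the libraries labelled ngs1, against 73.8 to 80.9 FPKM in WT-4NAG.

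**Figure D1:**
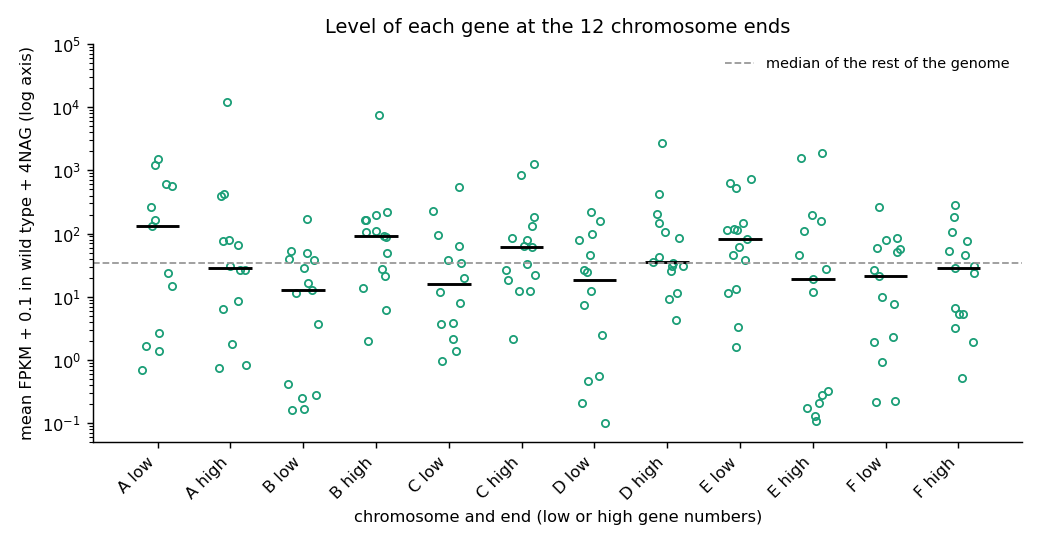
Each circle is 1 end gene, plotted at its mean FPKM plus 0.1 over the 3 WT-4NAG libraries (log axis), for the low-numbered and high-numbered end of each chromosome. Black bars are the medians of the ends and the dashed line is the median of the rest of the genome. The low-numbered end of B has the lowest median and the low-numbered end of A the highest, and most ends span several orders of magnitude.

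Counted inward from the end, the outermost positions were low and the next ones high. In WT-4NAG the genes at positions 1 to 5 had a median of 25.7 FPKM, those at positions 6 to 10 had 51.9 and those at positions 11 to 15 had 31.9. Further inward the medians were 37.1 FPKM at positions 16 to 30, 26.8 at positions 31 to 60 and 34.7 beyond position 60. Positions 31 to 60 were therefore about as low as positions 1 to 5, and the level did not climb steadily with distance. The share of genes under 1 FPKM was 18.2% at positions 1 to 5 (10 of 55), 8.33% at positions 6 to 10 and 13.3% at positions 11 to 15. Further inward it was 8.89% at positions 16 to 30, 10.0% at positions 31 to 60 and 8.45% beyond position 60. The left-out genes all lay at positions 1 to 5 and are not in these values.

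**Figure D2:**
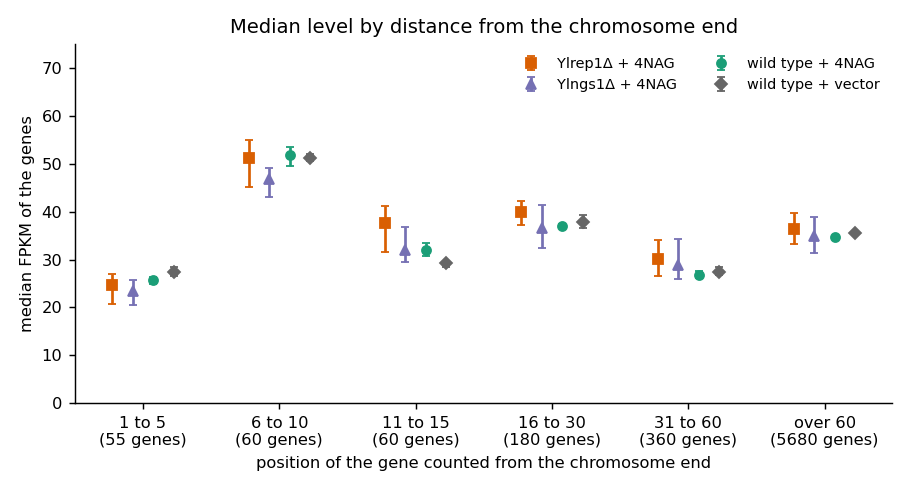
Median FPKM of the genes in 6 zones counted from the nearest chromosome end, with 1 marker per group. Markers are the mean of the 3 libraries and bars run from the lowest to the highest library. Positions 6 to 10 are highest in each of the 4 groups, and positions 1 to 5 are lowest in all but WT-Vec, where they share 27.4 FPKM with positions 31 to 60.

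The outermost gene of each end showed how mixed these positions were. At the high-numbered end of B the outermost gene, YALI0B23496, was also the second most highly expressed of all members, at 7490 FPKM in the libraries labelled rep1, 7760 in those labelled ngs1, 7540 in WT-4NAG and 7900 in WT-Vec. YALI0A00132, the first gene of the low-numbered end of A once YALI0A00110 was left out, had 1790, 1660, 1500 and 1720 FPKM in the same groups, and YALI0C24420 at the high-numbered end of C had 783, 933, 834 and 837 FPKM. None of these 3 was called in any comparison.

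Others among the outermost genes were almost silent. YALI0D00110 was listed at 0 FPKM in all libraries except replicates 1 and 3 of WT-Vec, which had 0.19 and 0.196 FPKM. YALI0E35222 averaged 0.0367, 0.0551, 0.0713 and 0.0589 FPKM in the libraries labelled rep1, those labelled ngs1, WT-4NAG and WT-Vec, and YALI0F00110 averaged 0.277, 0.476, 0.127 and 0.228 FPKM. None of these passed the filter on low counts, so no change could be tested. The remaining outermost genes were low to moderate in WT-4NAG: YALI0A21461 had 26.2, 26.2 and 26.0 FPKM, YALI0B00110 averaged 11.4, YALI0C00110 7.77, YALI0D27346 30.3, YALI0E00110 11.3 and YALI0F32175 6.66 FPKM.

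The end genes took 4.42%, 3.36% and 3.32% of all counts in the libraries labelled rep1 and 3.35%, 4.25% and 4.26% in those labelled ngs1, against 3.47%, 3.39% and 3.72% in WT-4NAG and 3.6%, 3.6% and 3.63% in WT-Vec. The mutant-labelled groups overlapped the wild type on both sides. Much of this share came from a few genes. Without the most highly expressed members, YALI0A21351 and YALI0B23496, the share was 2.84% to 3.48% in the libraries labelled rep1, 2.91% to 3.63% in those labelled ngs1, 2.90% to 2.94% in WT-4NAG and 2.92% to 2.99% in WT-Vec.

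**Figure D3:**
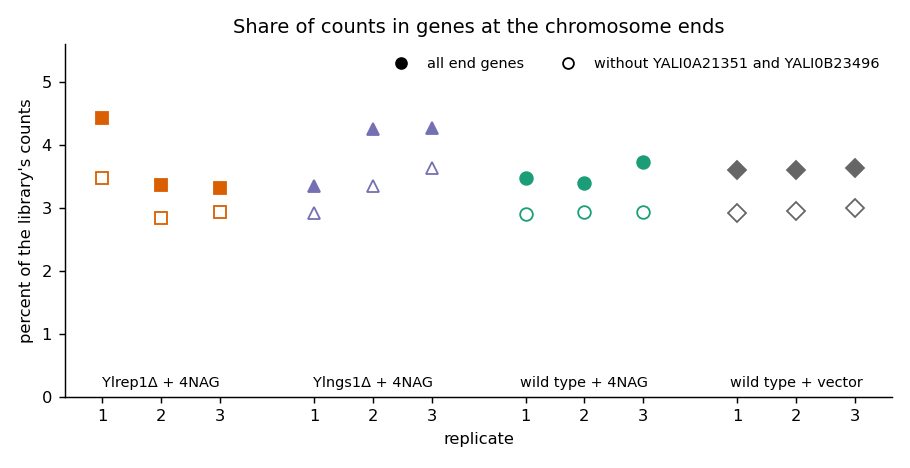
Percent of each library's counts that fell in end genes (filled) and the same without YALI0A21351 and YALI0B23496 (open), for the 3 replicates of each group. The 6 wild-type libraries lie between 3.39% and 3.72%, and the mutant-labelled libraries lie on both sides, between 3.32% and 4.42%.

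The most highly expressed members were YALI0A21351, YALI0B23496, YALI0E35046, YALI0D27236 and YALI0E34826, for none of which an annotation was used here. YALI0A21351 had 20100, 10400 and 7770 FPKM in the libraries labelled rep1 and 9060, 19300 and 13600 in those labelled ngs1, against 11300, 8780 and 15700 in WT-4NAG and 14300, 13500 and 13800 in WT-Vec. The groups overlapped, and the difference of the libraries labelled ngs1 from WT-4NAG was 0.28 ± 0.35 on the log2 scale (SE, edgeR adjusted p = 0.621).

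YALI0E35046, the fifth gene from the high-numbered end of E, had the widest spread of any tested member among the libraries labelled rep1. It had 3980, 239 and 190 FPKM there and 315, 3330 and 4610 FPKM in the libraries labelled ngs1, against 1760, 1750 and 2030 FPKM in WT-4NAG and 1490, 1530 and 1690 FPKM in WT-Vec. Both mutant-labelled groups thus had libraries well above and well below every wild-type library, and neither differed from WT-4NAG by the test (edgeR adjusted p = 0.891 and 0.606).

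YALI0D27236 had 1550, 844 and 1930 FPKM in the libraries labelled rep1 and 605, 1650 and 2070 in those labelled ngs1, all below the 2430, 2760 and 2820 FPKM of WT-4NAG. The differences did not pass the test (log2 -0.92 and -0.82, edgeR adjusted p = 0.143 and 0.244). WT-Vec was also lower than WT-4NAG for this gene, as given below, so these values hold against WT-4NAG only. YALI0E34826 was even across the groups, with means of 1800, 1710, 1580 and 1760 FPKM in the libraries labelled rep1, those labelled ngs1, WT-4NAG and WT-Vec.

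Whether loss of either regulator moved the end genes was examined against WT-4NAG with edgeR's quasi-likelihood test over all genes. A gene was called changed where the p adjusted by Benjamini-Hochberg was under 0.05 and the groups differed at least 2-fold. Of the 175 members, 159 passed the filter on low counts in each of these comparisons. In the libraries labelled rep1, 3 of the 159 (1.89%) were called, all 3 higher and 0 lower, where the background over all genes tested was 1.39% called in either direction, 1.06% higher and 0.331% lower. In the libraries labelled ngs1, 10 of the 159 (6.29%) were called, 8 higher and 2 lower, against a background of 7.67% in either direction, 5.36% higher and 2.3% lower. In both comparisons the share of end genes was near that of the genome, and the next 15 genes inward had 4.12% (7 of 170) in the libraries labelled rep1 and 8.77% (15 of 171) in those labelled ngs1.

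The count in the libraries labelled rep1 depended on single libraries. Without rep1 replicate 3 it was 13 (6 higher and 7 lower, 8.12% against 7.11% of all genes), without rep1 replicate 1 it was 8 (5.0% against 4.85% of all genes), and without WT-4NAG replicate 1, 2 or 3 it was 0, where 1 gene in the whole genome was called. In the libraries labelled ngs1 the count without replicate 3 was 15 (9.32% against 10.2% of all genes), and without WT-4NAG replicate 1, 2 or 3 it was 6 (3.7% to 3.75% against 4.08% to 4.49% of all genes).

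Small differences in both mutant-labelled groups leaned toward higher levels. The median log2 fold change of the tested members was 0.07 in the libraries labelled rep1 and 0.10 in those labelled ngs1, against 0.01 in the rest of the genome in both. Positive values were found for 57.9% of tested members in each mutant-labelled group, against 51.3% and 51.6% of all genes. All 3 libraries labelled rep1 lay above all 3 of WT-4NAG for 23.3% of the members and below them for 10.1%, against 16.9% and 15.7% of all genes. In either direction this was 53 members (33.3%, against 32.7% of all genes). For the libraries labelled ngs1 the shares were 26.4% above and 18.9% below, against 21.5% and 21.3% of all genes, and in either direction 72 members (45.3%, against 42.8%). Differences of at least 2-fold, taken without the test, were found for 9.43% of the members in each mutant-labelled group, against 6.54% and 10.2% of all genes. At an unadjusted p under 0.05 with that fold the shares were 8.18% and 7.55%, against 5.86% and 9.32%. Without replicate 3 of each group the shares above were 30.6% and 34.8%, against 27.0% and 29.3% of all genes, and those below were 23.1% and 24.2%, against 25.4% and 27.2%. Positive values then made up 56.9% and 55.3% of the members, against 51.7% and 51.1% of all genes. Genes at positions 16 to 30, with medians of 0.06 and 0.08, and at positions 31 to 60, with 0.06 and 0.09, had differences of the same size, so the lean was not particular to the 15 outermost genes. The mutant-labelled groups share the WT-4NAG libraries, so their values are not independent of each other.

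By end, the median log2 fold change in the libraries labelled ngs1 ran between -0.11 at the high-numbered end of C and 0.35 at the low-numbered end of D. In the libraries labelled rep1 it ran between -0.05 at the high-numbered end of B and 0.26 at the low-numbered end of D. The called members lay on 8 of the 12 ends and on all 6 chromosomes, when all comparisons are counted. Among the members kept, only YALI0A21461 and YALI0A21439 were called neighbours, and they moved in opposite directions. Left-out genes also lay beside called members. YALI0D00154, at position 3 of the low-numbered end of D, is next to YALI0D00132, and both were called higher in the libraries labelled ngs1. YALI0A00176, at position 4 of the low-numbered end of A, is next to YALI0A00154, which was called only between the wild-type groups. Positions 1 to 5 held 6 of the 10 members called in the libraries labelled ngs1, which was 12.5% of the 48 tested there, against 7.67% of all genes and 10.1% at positions 31 to 60. The left-out genes all lay at positions 1 to 5 and are not in these counts. Most of them were called in the libraries labelled ngs1. Positions 6 to 10 held 1 and positions 11 to 15 held 3. In the libraries labelled rep1, positions 1 to 5 held 2 called members (4.17% of 48), against 1.39% of all genes. Over the fits that leave out 1 library, the ngs1 count at positions 1 to 5 ran between 4 and 10. It was 4 of 49 or 50 tested without WT-4NAG replicate 1, 2 or 3, where 4.08% to 4.49% of all genes were called. It was 10 of 49 without ngs1 replicate 3, where 10.2% of all genes were called.

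**Figure D4:**
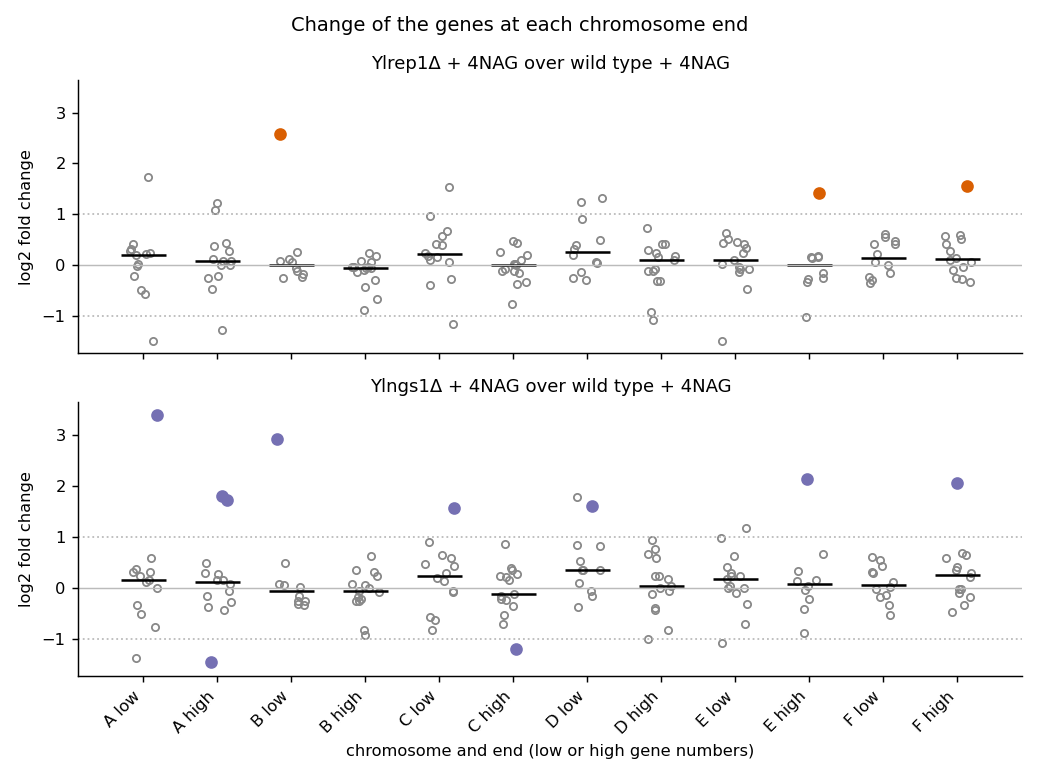
Log2 fold change of every tested end gene in the libraries labelled rep1 (top) and ngs1 (bottom) over WT-4NAG, by chromosome end. Filled points were called, black bars are medians and dotted lines mark 2-fold. Most genes lie within 2-fold at every end, with 3 genes called in the upper panel and 10 in the lower.

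The members called higher in both mutant-labelled groups were YALI0B00154, YALI0E34947 and YALI0F32065. No member was called lower in both or in opposite directions with all libraries. Without replicate 3 of each group 6 were called higher in both (3.75% of 160 tested) and 4 lower in both (2.5%). Those lower were YALI0A00154, YALI0A21461, YALI0B23430 and YALI0C24398, and no member was called in opposite directions. The share of all genes called in both groups was not computed, so the joint counts have no background beside them. Without replicate 3, 7.11% of all genes were called in the libraries labelled rep1 and 10.2% in those labelled ngs1. YALI0F32065, the fourth gene from the high-numbered end of F, is annotated as a protein without similarity to others. It had 226, 279 and 230 CPM in the libraries labelled rep1 and 396, 374 and 273 CPM in those labelled ngs1, against 78.8, 88.7 and 79.7 CPM in WT-4NAG and 88.4, 66.2 and 90.9 CPM in WT-Vec. Every library labelled rep1 or ngs1 was above every wild-type library. The log2 fold change over WT-4NAG was 1.55 ± 0.13 in the libraries labelled rep1 and 2.07 ± 0.16 in those labelled ngs1 (SE, edgeR adjusted p = 0.00964 and 0.000922).

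YALI0E34947, annotated as a predicted vacuolar protein with a calcineurin-like phosphoesterase domain (a fold found in enzymes that remove phosphate groups), is the eighth gene from the high-numbered end of E. It had 97.0, 74.1 and 54.6 CPM in the libraries labelled rep1 and 91.9, 159 and 119 CPM in those labelled ngs1, against 28.4, 26.2 and 29.0 CPM in WT-4NAG and 35.5, 30 and 29.3 CPM in WT-Vec. The groups did not overlap, and the log2 fold change was 1.41 ± 0.21 and 2.14 ± 0.21 in the libraries labelled rep1 and ngs1 (edgeR adjusted p = 0.0358 and 0.00185).

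YALI0B00154, a protein with predicted transmembrane domains and no similarity to others, is the third gene from the low-numbered end of B, the end with the lowest median level. It had 29.4, 58.0 and 17.3 CPM in the libraries labelled rep1 and 66.6, 45.7 and 20.7 CPM in those labelled ngs1, against 6.24, 5.27 and 5.78 CPM in WT-4NAG and 6.36, 7.15 and 6.16 CPM in WT-Vec. Replicate 3 was the lowest library in both mutant-labelled groups and still stood above all wild-type libraries. Relative to WT-4NAG the log2 fold change was 2.57 ± 0.42 in the libraries labelled rep1 and 2.93 ± 0.40 in those labelled ngs1 (edgeR adjusted p = 0.0388 and 0.00473). The calls of these 3 genes in the libraries labelled ngs1 held under all 13 other fits. Their calls in the libraries labelled rep1 were lost without WT-4NAG replicate 1, 2 or 3, with adjusted p up to 0.212 for YALI0B00154, 0.212 for YALI0E34947 and 0.103 for YALI0F32065, and that of YALI0E34947 was also lost without rep1 replicate 2.

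A pair of transporter-like genes was called higher in the libraries labelled ngs1. YALI0D00132, annotated as similar to a myo-inositol permease of Neurospora crassa, had 28.7, 50.0 and 25.6 CPM in the libraries labelled rep1 and 59.6, 36.1 and 36.5 CPM in those labelled ngs1, against 13.2, 13.5 and 16.4 CPM in WT-4NAG and 16.4, 13.6 and 14.2 CPM in WT-Vec. The groups did not overlap, and the log2 fold change was 1.61 ± 0.22 in the libraries labelled ngs1 (edgeR adjusted p = 0.00475) and 1.25 ± 0.26 in those labelled rep1, where it missed the threshold (edgeR adjusted p = 0.0582). For rep1 the gene was called with DESeq2 (adjusted p = 0.000397), in the fit of all 12 libraries (0.0159), with limma (0.0171) and without rep1 replicate 1 or 3 (0.0288 and 0.0162).

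YALI0C00451, similar to Dip5, the dicarboxylic amino acid permease of Saccharomyces cerevisiae, had 287, 713 and 438 CPM in the libraries labelled rep1 and 865, 377 and 241 CPM in those labelled ngs1, against 169, 161 and 160 CPM in WT-4NAG and 163, 153 and 184 CPM in WT-Vec. All libraries labelled rep1 or ngs1 were higher, by very different amounts. The log2 fold change was 1.53 ± 0.30 in the libraries labelled rep1 (edgeR adjusted p = 0.0557, not called) and 1.58 ± 0.42 in those labelled ngs1 (edgeR adjusted p = 0.0432). For rep1 it was called with DESeq2 (adjusted p = 2.4e-05), in the fit of all 12 libraries (0.0411), with limma (0.00679) and without rep1 replicate 1 or 3 (0.00647 and 0.0279). The call in the libraries labelled ngs1 was lost without ngs1 replicate 2 and without WT-4NAG replicate 1, 2 or 3, with adjusted p up to 0.152. It was also lost without ngs1 replicate 1, where only the fold fell under the threshold (log2 0.92, edgeR adjusted p = 0.001).

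At the high-numbered end of chromosome A, 3 members were called in the libraries labelled ngs1. The outermost gene, YALI0A21461, is similar to YKR018C of Saccharomyces cerevisiae, a gene of unknown function. It had 15.4, 13.0 and 31.4 CPM in the libraries labelled rep1 and 9.73, 18.5 and 23.8 CPM in those labelled ngs1, against 47.7, 47.9 and 47.0 CPM in WT-4NAG and 66.6, 64.6 and 61.5 CPM in WT-Vec. It fell by 1.45 ± 0.31 on the log2 scale in the libraries labelled ngs1 (edgeR adjusted p = 0.0211), and its log2 difference in those labelled rep1 was -1.27 ± 0.33 (edgeR adjusted p = 0.0844). For rep1 it was called lower with DESeq2 (adjusted p = 0.00343), in the fit of all 12 libraries (0.0455), with limma (0.0127) and without rep1 replicate 3 (-1.78, 0.00177). The call in the libraries labelled ngs1 was lost without ngs1 replicate 2 and without WT-4NAG replicate 1, 2 or 3, with adjusted p up to 0.0814.

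Its neighbour YALI0A21439, similar to a putative dioxygenase of Neurospora crassa (dioxygenases add both atoms of molecular oxygen to a substrate), moved the other way. It had 1760, 782 and 510 CPM in the libraries labelled rep1 and 962, 1740 and 2240 CPM in those labelled ngs1, against 430, 489 and 494 CPM in WT-4NAG and 416, 445 and 498 CPM in WT-Vec. Replicate 3 labelled rep1 was close to the wild type. The log2 fold change was 1.81 ± 0.31 in the libraries labelled ngs1 (edgeR adjusted p = 0.0101) and 1.09 ± 0.42 in those labelled rep1 (edgeR adjusted p = 0.171), where it was called with DESeq2 (adjusted p = 0.0465) and without rep1 replicate 3 (log2 1.4, edgeR adjusted p = 0.0348). The call in the libraries labelled ngs1 was lost without WT-4NAG replicate 1, 2 or 3, with adjusted p up to 0.0615.

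YALI0A21120, a gene without similarity to others at position 15 of the same end, was low throughout. It had 2.51, 5.08 and 2.03 CPM in the libraries labelled rep1 and 4.68, 4.86 and 3.93 CPM in those labelled ngs1, against 1.65, 0.932 and 1.48 CPM in WT-4NAG and 1.11, 1.09 and 1.37 CPM in WT-Vec. The log2 fold change in the libraries labelled ngs1 was 1.72 ± 0.28 (edgeR adjusted p = 0.00833), a call that held under all 13 other fits.

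YALI0A00374, at position 12 of the low-numbered end of A, had the largest fold change among tested members. It is annotated as weakly similar to YALI0E01210 and as carrying a GPI signal, which anchors proteins at the cell surface. It had 2.17, 2.21 and 0.80 CPM in the libraries labelled rep1 and 8.67, 5.46 and 2.42 CPM in those labelled ngs1, against 0.619, 0.792 and 0.106 CPM in WT-4NAG and 0.0929, 1.00 and 0.44 CPM in WT-Vec. These levels rest on few reads, with a mean count of 98.0 in the libraries labelled ngs1 and 10.3 in WT-4NAG. The log2 fold change in the libraries labelled ngs1 was 3.40 ± 0.66 (edgeR adjusted p = 0.0157), a call lost without ngs1 replicate 2 and without WT-4NAG replicate 1, 2 or 3, with adjusted p up to 0.0725.

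The other member called lower was YALI0C24398, the second gene from the high-numbered end of C, annotated as weakly similar to Hmo1, a chromatin protein of the high-mobility-group type that binds ribosomal genes in Saccharomyces cerevisiae. It had 74.2, 72.5 and 115 CPM in the libraries labelled rep1 and 55.1, 69.2 and 66.4 CPM in those labelled ngs1, against 155, 141 and 142 CPM in WT-4NAG and 150, 163 and 158 CPM in WT-Vec. Every library labelled rep1 or ngs1 was below every wild-type library. It fell by 1.2 ± 0.13 on the log2 scale in the libraries labelled ngs1 (edgeR adjusted p = 0.00244), a call that held under all 13 other fits, and its log2 difference in those labelled rep1 was -0.76 ± 0.20 (edgeR adjusted p = 0.0897), or -1.03 without rep1 replicate 3, where it was called (edgeR adjusted p = 0.00281).

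**Figure D5:**
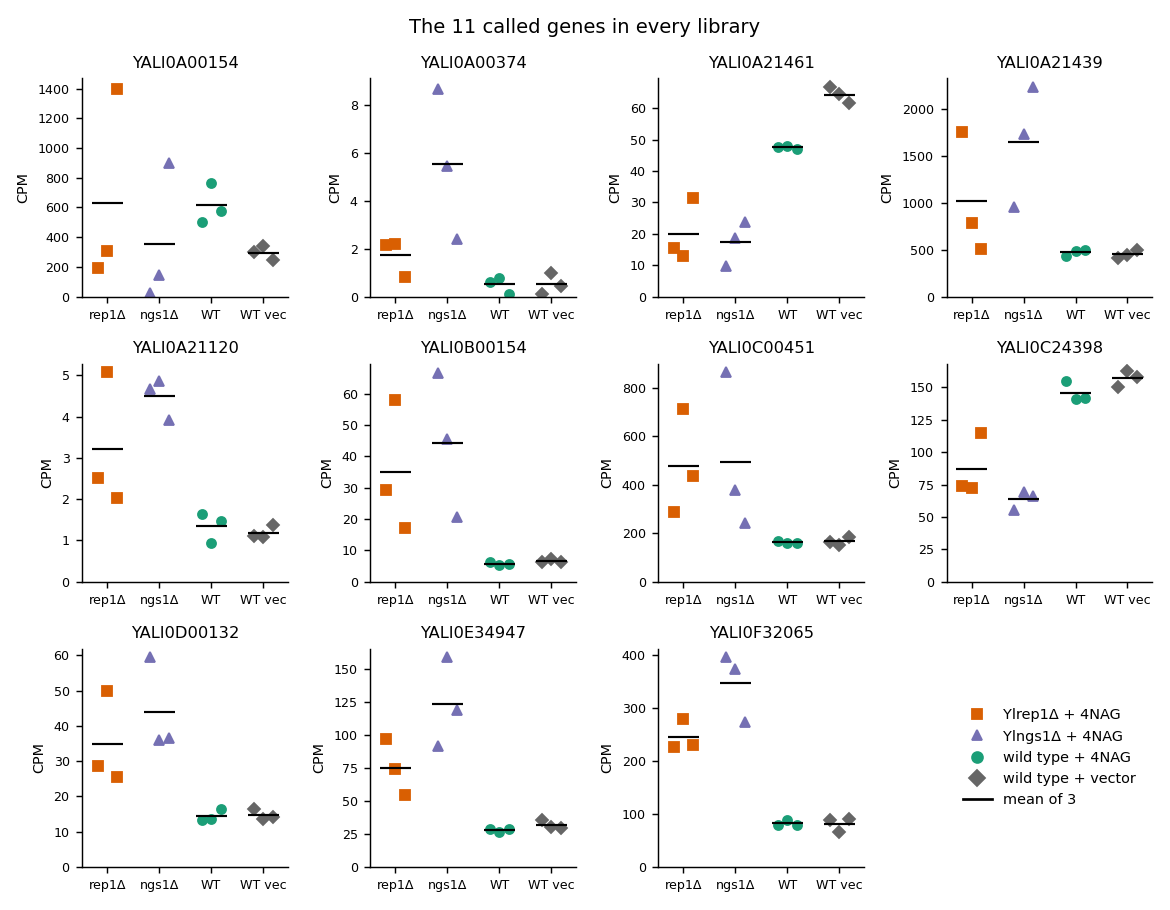
CPM of the 11 called end genes in each library, with 1 panel per gene and linear axes that start at 0. Groups run from the libraries labelled rep1 and ngs1 to WT-4NAG and WT-Vec, and black bars are means of 3 libraries. The WT-4NAG libraries lie closer together than the mutant-labelled libraries for most genes, and for YALI0A00154 the mutant-labelled libraries lie on both sides of the wild type.

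Annotations used here come from the study's lists of changed genes, so they were available for 15 of the 175 members only and say nothing about the function of the others. Of these 15, 5 were not called here, although each is on the study's lists of changed genes. Those lists are longer than the edgeR calls in both comparisons. Over all genes, edgeR called 84 for rep1 and 463 for ngs1, where DESeq2 called 307 and 556. A gene can therefore be on the study's lists and miss the edgeR call, and the values of these 5 below are from edgeR only. YALI0E00286, a lipase (a fat-splitting enzyme) related to LIP7 and LIP8, had 1.65, 2.25 and 1.97 CPM in the libraries labelled rep1 and 3.72, 3.54 and 2.54 CPM in those labelled ngs1, against 1.70, 0.885 and 1.75 CPM in WT-4NAG, with a log2 difference of 1.17 ± 0.33 in the libraries labelled ngs1 (edgeR adjusted p = 0.0518). YALI0C00231, similar to a lipase 1 precursor, averaged 2.41 CPM in the libraries labelled rep1 and 3.00 in those labelled ngs1, against 5.27 CPM in WT-4NAG (edgeR adjusted p = 0.0796 and 0.116).

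The other 3 were also lower in mean than WT-4NAG without passing the test. YALI0D27214, similar to a cell wall protein, averaged 3.40 and 3.51 CPM in the libraries labelled rep1 and ngs1 against 7.01 CPM in WT-4NAG (edgeR adjusted p = 0.0817 and 0.22). The study lists this gene as lower by at least 2-fold in its YlREP1 deletion strain. YALI0E00308, similar to a Candida albicans protein of unknown function, averaged 2.06 and 2.65 CPM against 5.65 CPM (edgeR adjusted p = 0.119 and 0.159). YALI0A00198, of unknown function, averaged 0.439 and 0.47 CPM against 1.21 CPM (edgeR adjusted p = 0.108 and 0.0688).

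The mutant-labelled groups were also compared with each other. With edgeR, 0 of 158 tested members were called between the libraries labelled ngs1 and those labelled rep1, as for all genes tested (0.0% called), and DESeq2 called 0 as well. At an unadjusted p under 0.05 with a difference of at least 2-fold, 1 member passed (0.633%), against 0.465% of all genes. The groups did not overlap for 11 members (6.96%), against 5.44% of all genes, 6 higher (3.8% against 2.84%) and 5 lower (3.16% against 2.59%). Differences of at least 2-fold without the test were found for 0.633% of members and 0.947% of all genes, and positive values for 50.0% and 51.1%. The median log2 fold change of the members was 0.00, and that of the rest 0.01.

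The plasmid itself, tested as WT-4NAG against WT-Vec, was accompanied by 1 called member of 162 tested (0.617%), where 0.182% of all genes were called. YALI0A00154, the third gene from the low-numbered end of A, had 502, 767 and 578 CPM in WT-4NAG against 301, 340 and 248 CPM in WT-Vec, without overlap, and a log2 fold change of 1.06 ± 0.12 (edgeR adjusted p = 7.32e-05). The call was lost without WT-4NAG replicate 2 (log2 0.86, edgeR adjusted p = 0.000264) and without WT-Vec replicate 3 (0.94, edgeR adjusted p = 0.000492). It was also lost with limma (0.99, limma adjusted p = 6.41e-05). In these fits only the fold fell under the threshold. In the fit of all 12 libraries the log2 value was 1.06 and the adjusted p was not under 0.05. In the mutant-labelled groups the same gene had 194, 304 and 1400 CPM in the libraries labelled rep1 and 26.3, 145 and 899 CPM in those labelled ngs1, so replicate 3 of each stood above all 3 WT-4NAG libraries and the other 2 below them. The log2 difference from WT-4NAG was 0.03 ± 0.69 and -0.76 ± 1.04 (edgeR adjusted p = 0.984 and 0.645). Without replicate 3 both groups were called lower, at -1.34 in the libraries labelled rep1 (edgeR adjusted p = 0.0212) and -2.87 in those labelled ngs1 (edgeR adjusted p = 0.0363), and limma gave -1.85 in the libraries labelled ngs1 (adjusted p = 0.00225).

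Most differences between the wild-type groups were small. The median log2 fold change of the members was -0.01, against 0.00 in the rest of the genome, and the groups did not overlap for 29.6% of the members, against 29.9% of all genes. By an unadjusted p with at least 2-fold, or by 2-fold alone, 1 member passed (0.617%), against 0.496% and 0.546% of all genes. Without the 2-fold threshold 15 members passed (9.26%, against 10.6% of all genes), 6 higher and 9 lower in WT-4NAG. Among them YALI0D27236 averaged 1510 CPM in WT-4NAG against 1050 CPM in WT-Vec (log2 0.53 ± 0.06, edgeR adjusted p = 5.64e-05), and YALI0A21461 averaged 47.6 CPM against 64.2 CPM (log2 -0.43 ± 0.07, edgeR adjusted p = 0.000768).

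Of the 5 left-out genes, YALI0A00110 and YALI0A00176 were called higher in both mutant-labelled groups, YALI0D00154 was called higher and YALI0A21373 lower in the libraries labelled ngs1, and YALI0C00209 was not called in any comparison. All 5 lay at positions 1 to 5. With them put back, 5 genes were called in the libraries labelled rep1 (3.05%, against 1.39% of all genes) and 14 in those labelled ngs1 (8.54%, against 7.67%).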

How the data were processed

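Per the labels, libraries were prepared from total RNA with a TruSeq kit, whose strand setting is not given. The authors deposited 4 tables with whole-number read counts per gene and FPKM values (fragments per kilobase, scaled by library size). Tools named in the submitters' processing notes are Cufflinks 2.2.1 and TopHat2 2.1.1, with the mouse build mm10. The read counter and yeast annotation were not given in the sources used here. 24 genes, 1 of them an end gene with at most 2 counts, were absent from a table and set to 0 there. The members, the gene lists and the rule for named genes were chosen with earlier results of these data known. Named were the called members whose mean count reached 20 in the higher of the compared groups, the outermost gene of each end, the 5 highest by mean FPKM, and the left-out genes. Annotated members were added after their values were seen. Levels of different genes are compared in the deposited FPKM, and those of 1 gene across libraries in CPM with TMM scaling.

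Counts were tested in Python 3.11.15 and R 4.3.3 with edgeR 4.0.16 (filterByExpr, TMM, glmQLFTest), with the 3 libraries of each of 2 groups per fit and Benjamini-Hochberg adjustment over all genes tested. The code was tested on simulated data. Alternatives were DESeq2 1.42.0, limma 3.58.1, other filters, members and library subsets. Log2 values of single libraries used CPM plus 0.5. The precision is limited by 3 libraries per group. Columns not assigned to a sample numbered 0. Gene sequences and coordinates were not used here, since 0 of the identifiers matched the reference table.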

Additional observations from a re-analysis of the deposited data

How the results depend on the processing

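Leaving out 1 library at a time gave 0 to 13 called members in the libraries labelled rep1 (3 with all libraries) and 6 to 15 in those labelled ngs1 (10). It gave 0 between the mutant-labelled groups and 0 to 1 between WT-4NAG and WT-Vec (1). The share of all genes called in these fits moved too, between 0.0165% and 7.11% for rep1 and between 4.08% and 10.2% for ngs1. It was 0.0% between the mutant-labelled groups and 0.132% to 0.246% between the wild-type groups. The median log2 fold changes then ran between 0.06 and 0.09, 0.08 and 0.11, -0.04 and 0.04, and -0.04 and 0.00 in the same 4 comparisons. For rep1 the count was 10 with DESeq2 (6 higher, 4 lower, 5.75% against 4.8% of all genes), 8 in the fit of all 12 libraries (5 and 3, 4.91% against 3.52%), 7 with limma and sample quality weights (5 and 2, 4.4% against 3.53%), 13 at an unadjusted p (8 and 5, 8.18% against 5.86%), 5 with the left-out genes and 6 with 20 genes per end (5 and 1, 2.76% against 1.39%). For ngs1 it was 17 with limma (11 and 6, 10.7% against 10.4%), 26 without a fold threshold (17 and 9, 16.4% against 17.8%) and 16 with 20 genes per end (12 and 4, 7.37% against 7.67%), which gave a median log2 fold change of 0.05. Between the mutant-labelled groups 1 member passed at an unadjusted p (0.633% against 0.465%). Between the wild-type groups the count was 0 in the fit of all 12 libraries (0.0% of all genes) and 0 with limma (0.199% of all genes). It was 15 without a fold threshold (9.26% against 10.6%), and the median was -0.05 with 10 genes per end. The values without replicate 3 of the mutant-labelled groups for level classes and directions, and the counts at positions 1 to 5, were added after seeing the data. Over the fits that leave out 1 library, these counts were 0 to 10 of 48 tested for rep1 and 4 to 10 of 49 or 50 for ngs1. For rep1 the count was 10 without rep1 replicate 3, where 7.11% of all genes were called. It was 0 without WT-4NAG replicate 1, 2 or 3, where 0.0165% of all genes were called. Same-numbered libraries were not treated as pairs, since their deviations correlated between -0.64 and 0.21. Differently numbered libraries of the mutant-labelled groups correlated between -0.78 and 0.84. With the replicate number as a block the counts of calls were 3 (1.89% against 1.67% of all genes), 10 (6.29% against 7.1%), 0 (0.0% for both) and 1 (0.617% against 0.199%). The median in the libraries labelled ngs1 was 0.05 in that fit. YALI0A00154 turned to -1.34 in the libraries labelled rep1 without rep1 replicate 3 (edgeR adjusted p = 0.0212), against 0.03 with all libraries, and lay between -1.34 and 0.46 over the fits that leave out 1 library.

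The median FPKM of the members was 39.3, 36.9, 32.9 and 34.6 in the libraries labelled rep1, those labelled ngs1, WT-4NAG and WT-Vec when genes at 0 were left out, and 38.7, 38.1, 35.1 and 35.7 with 20 genes per end. With 10 genes per end it was 36.8 in the libraries labelled ngs1, 30.7 in WT-4NAG and 34.0 in WT-Vec. With identifiers in all 4 tables only it was 35.7 in the libraries labelled ngs1 and 32.4 in WT-4NAG, where the left-out genes gave 31.7. Leaving out 1 library gave 33.4 to 36.6, 33.3 to 34.7, 30.9 to 31 and 32.6 to 33.3. Of the 175 members, 13 failed the filter in every comparison, with at most 19 counts in any library, so their changes could not be tested at this depth. Position comes from identifier order, and distances to telomeres were not used here. The cause of these shifts was not tested.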
